A study of Mus musculus with 8 samples.

Results

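The insulin-like growth factor (IGF) system was followed in cultured mouse bone marrow stromal cells through 10 genes, namely the ligands Igf1 and Igf2, the receptors Igf1r and Igf2r, and the binding proteins Igfbp2, Igfbp3, Igfbp4, Igfbp5, Igfbp6 and Igfbp7. They were taken by name from a list of the family and matched by gene identifier, and all 10 were among the 19460 genes of the table and among the 14294 genes tested. Bone marrow stromal cells are the adherent cells of marrow, which include the precursors of bone-forming osteoblasts. Polyadenylated RNA was sequenced from 4 libraries of wild-type mice and 4 of mice homozygous for Lgr6-GFP-ires-CreERT2, a reporter and inducible Cre cassette at the R-spondin receptor gene Lgr6; these are called Lgr6-null in the titles. Both genotypes were on the C57BL/6 background, and all cultures were kept in MEM with 10% fetal bovine serum and antibiotics. Once 80% to 90% confluent, they had all received osteogenic medium with 4 mM β-glycerophosphate together with 50 µg/mL ascorbic acid for 10 days, so no undifferentiated culture is compared here. The age and sex of the mice, and whether each library had its own animal or culture, are not stated in the labels, so p-values measure only the spread between these libraries.

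IGF1 and IGF2 are secreted growth factors that act through IGF1R, a receptor tyrosine kinase which signals through insulin receptor substrates, PI3K and AKT. IGF2R, a receptor that also carries mannose 6-phosphate-tagged enzymes to lysosomes, binds IGF2 and removes it. The binding proteins hold IGFs in the fluid around cells and in matrix; IGFBP4 is mostly an inhibitor that proteases such as PAPP-A inactivate, and IGFBP5 binds strongly to bone matrix. IGF1 made in bone, by osteoblasts among other cells, promotes bone formation, and macrophages are another known source.

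The windows below are promoters, from 250 bases before to 50 bases after the RefSeq start site, of the 3 members called different between the genotypes (Igf1, Igfbp3 and Igfbp5) and of Igfbp4, the most abundant member. They are read 5′ to 3′ along the gene from RefSeq's GRCm38.p6, an earlier build than the GRCm39 named for these files. Capitals mark matches, on either strand, to the RUNX core TGTGGT, the TATA box TATAAA or the GC box GGGCGG.
Igf1 (chr10:87860861-87861160, plus strand): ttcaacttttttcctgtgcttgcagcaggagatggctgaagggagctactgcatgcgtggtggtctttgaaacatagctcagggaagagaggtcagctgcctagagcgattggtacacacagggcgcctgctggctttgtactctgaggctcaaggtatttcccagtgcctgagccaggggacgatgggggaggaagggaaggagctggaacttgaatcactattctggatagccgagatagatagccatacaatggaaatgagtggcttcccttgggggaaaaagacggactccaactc
Igfbp3 (chr11:7213874-7214173, minus strand): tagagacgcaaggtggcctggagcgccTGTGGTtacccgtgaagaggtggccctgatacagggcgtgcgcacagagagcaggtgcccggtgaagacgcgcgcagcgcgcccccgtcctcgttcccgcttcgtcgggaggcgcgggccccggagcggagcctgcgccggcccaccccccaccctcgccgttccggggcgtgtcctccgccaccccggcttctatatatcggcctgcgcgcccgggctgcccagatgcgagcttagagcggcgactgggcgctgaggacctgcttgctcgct
Igfbp5 (chr1:72874816-72875115, minus strand): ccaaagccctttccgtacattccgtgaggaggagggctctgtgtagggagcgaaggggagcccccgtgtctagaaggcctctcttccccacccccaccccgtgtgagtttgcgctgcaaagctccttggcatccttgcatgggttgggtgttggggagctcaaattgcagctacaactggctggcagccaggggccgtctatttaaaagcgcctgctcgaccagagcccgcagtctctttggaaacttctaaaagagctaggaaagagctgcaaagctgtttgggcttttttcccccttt
Igfbp4 (chr11:99040994-99041293, plus strand): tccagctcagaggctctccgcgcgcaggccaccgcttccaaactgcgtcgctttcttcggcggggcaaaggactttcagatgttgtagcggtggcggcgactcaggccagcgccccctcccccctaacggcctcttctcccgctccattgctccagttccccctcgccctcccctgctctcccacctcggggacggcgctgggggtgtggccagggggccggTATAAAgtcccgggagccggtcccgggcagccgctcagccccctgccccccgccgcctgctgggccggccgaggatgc

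In these windows the RUNX core was found once, in Igfbp3, with its first base 223 bases before the start site, and the TATA box once, in Igfbp4, 28 bases before the start site. The windows of Igf1 and Igfbp5 held none of the 3 motifs, and the GC box was in none of the 4 shown but in windows of Igf1r, Igf2, Igf2r, Igfbp2 and Igfbp7. Of all 32851 promoter windows of this length, 16.8% held the RUNX core, 13.6% the TATA box and 35.7% the GC box. The windows differed in base composition, with 52.3% G and C in Igf1, 56.3% in Igfbp5, 71.3% in Igfbp4 and 71.7% in Igfbp3. Only these exact letters were searched, so variants of the 3 motifs were not counted. A match is a description of these letters, not a binding site.

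The libraries held 7629968 to 21135173 reads in genes, the fewest in Lgr6-null library M4; libraries are named here by the numbers in the table's column names. Lgr6 itself ran from 996 to 1667 normalized counts with the wild-type genotype and from 61.1 to 103 in Lgr6-null, which in limma is -4.06 on the log2 scale (SE 0.20, adjusted p = 2.73e-06). Summed osteoblast markers, led by Col1a1 and Col1a2, ran from 1804152 to 2351761 normalized counts in wild-type and from 336417 to 417617 in Lgr6-null, and 12 of 12 were called lower. Summed macrophage and monocyte markers, led by Lyz2 and Mpeg1, ran from 304819 to 361453 in wild-type and from 444403 to 667614 in Lgr6-null. Of 16 markers 11 were called higher and 0 lower, and Mpeg1 was not called (adjusted p = 0.347). Macrophage markers were thus present in every culture labelled as stromal cells, and in bulk RNA fewer cells of a type and less RNA per cell cannot be told apart. Summed mesenchymal stromal markers, led by Vim and Col3a1, ran from 67866 to 79384 and from 90053 to 107500, with 5 of 12 called higher and 1 lower. Smooth muscle and pericyte markers, led by Acta2 and Cspg4, ran from 9496 to 18170 in wild-type and from 17619 to 23191 in Lgr6-null. Of 7 tested, 3 were called higher, Acta2 among them, and 1 lower, which was Cspg4 (log2 fold change -2.58, adjusted p = 0.00013). Sums of endothelial (Kdr, Vwf), granulocyte (S100a8, Mpo), lymphocyte (Cd79b, Cd79a) and erythroid (Klf1, Alas2) markers stayed at or below 224 in every library, and of the tested markers 1 of 5 endothelial and 1 of 1 lymphocyte were called higher and 1 endothelial lower; the T cell markers Cd3e and Cd3d are not analysed here. Osteoclast (Ctsk, Atp6v0d2), adipocyte (Lpl, Cebpa) and chondrocyte (Col2a1, Comp) markers had 0 called higher and 3 of 4, 2 of 5 and 2 of 5 tested called lower.

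Among the 10 members, Igf1 and Igfbp5 were called higher in Lgr6-null cultures, Igfbp3 was called lower, and 7 were not called. A call means an adjusted p under 0.05 over all tested genes, and adjusted p-values are limma's unless another tool is named. Over all 14294 genes, 13.0% were called higher and 12.7% lower, so 2 and 1 of 10 members are near the background share and are no result about the family. With libraries scaled to the same total, 2886 genes were called higher and 1281 lower, against 1855 and 1821 with the authors' scaling. The genotypes did not overlap for 2 members, Igf1 and Igf1r, where 29.1% of all tested genes did not overlap. The median log2 fold change of the members was 0.46, beside 0.00 for all tested genes. Fold changes here are Lgr6-null minus wild-type on log2(normalized count + 1), which understates changes of low genes.

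**Figure D1:**
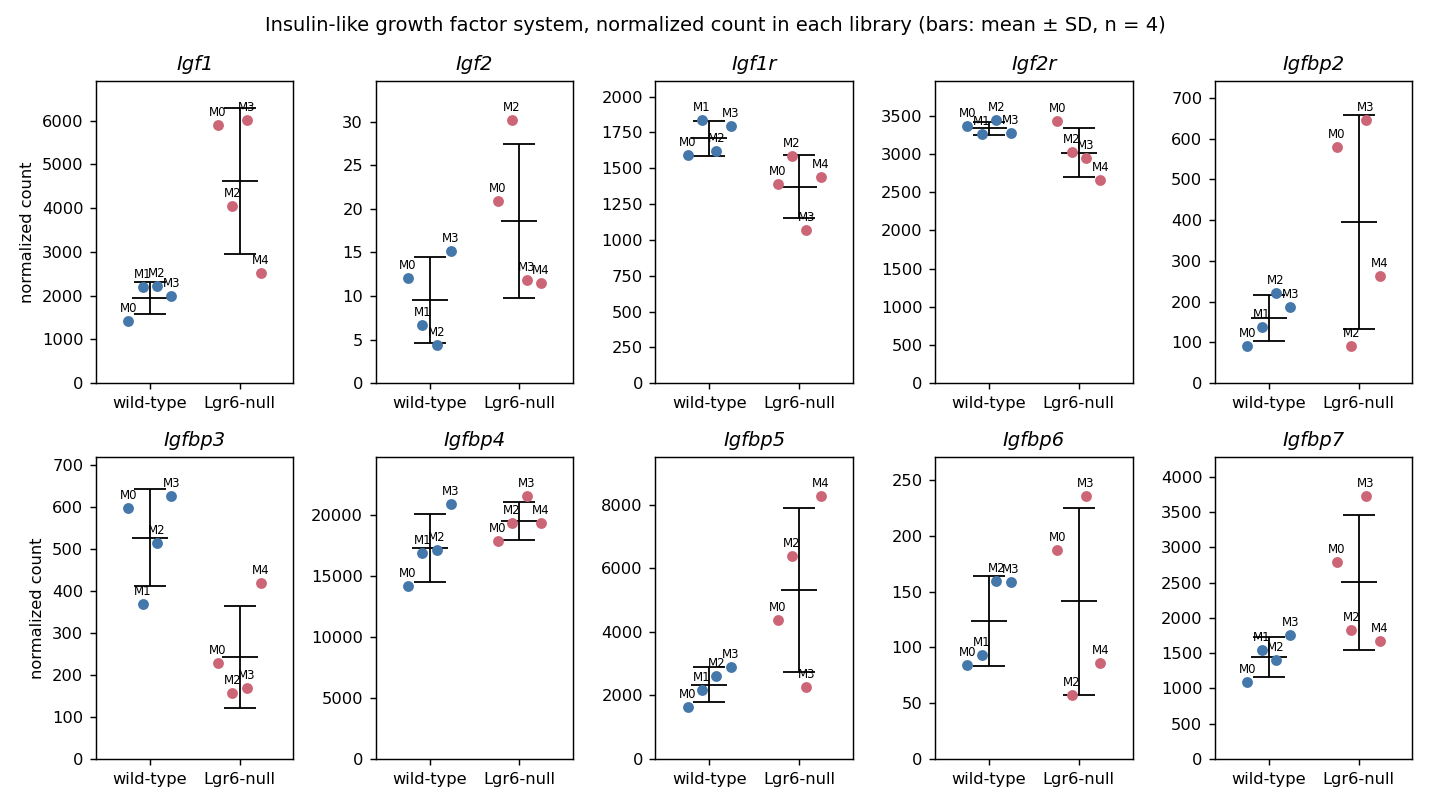
Normalized count (y axis, from 0) of each member in each of the 4 wild-type (blue) and 4 Lgr6-null (red) libraries, labelled by column number; black bars are the mean ± SD (n = 4). Igf1 is higher in all Lgr6-null libraries than in any wild-type library, while Igfbp5 is as low in Lgr6-null M3 (2270) as in wild-type, and Igfbp2 runs from 90.4 to 645 within Lgr6-null.

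Of the ligands, Igf1 (ENSMUSG00000020053, chromosome 10), the main circulating and local growth factor of adult bone, rose. Its normalized counts were 1421, 2192, 2212 and 1987 in wild-type (columns M0 to M3) and 5910, 4043, 6006 and 2522 in Lgr6-null (columns M0, M2, M3, M4). Every Lgr6-null library was above every wild-type library, M4 by the least, and M0 and M3 were the highest. The means were 1953 ± 369 in wild-type and 4620 ± 1665 in Lgr6-null (SD, n = 4), a ratio of 2.37, and the log2 fold change was 1.18 (SE 0.26, 95% interval 0.59 to 1.77, adjusted p = 0.00960). A two-sided exact permutation test gave p = 0.0286, the smallest that 4 against 4 libraries allow, which any gene whose genotypes do not overlap reaches. Igf1r, which was not called, had the same p. The test gave 0.0571 for Igfbp3 and also for Igfbp7, which was not called, and 0.0857 for Igfbp5. Igf1 stayed called in all 18 alternative settings, with log2 fold changes from 1.03 to 1.51.

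The Lgr6-null libraries with the most Igf1, M3 and M0, also had the highest summed macrophage markers, 667614 and 561332 normalized counts, and M2 and M4 had 450219 and 444403. Between genotypes the macrophage sum differed by a ratio of 1.62 and Igf1 by 2.37. Lyz2 alone held 168677 of the mean sum of 327627 in wild-type and 300686 of 530892 in Lgr6-null. The ratios of single markers ran from 0.99 (Fcer1g) to 2.03 (Mrc1), so the sum depends mostly on 1 gene. Per 1000 summed macrophage marker counts, a quantity chosen after values were seen, Igf1 was at 4.66, 7.02, 6.12 and 5.99 in wild-type M0 to M3. The same quantity was 10.5, 8.98 and 8.997 in Lgr6-null M0, M2 and M3 and 5.68 in M4, which lay within the wild-type range. The part of macrophage RNA in the Igf1 difference was not tested. Igf1os, a gene on the opposite strand that shares no exon bases with Igf1 in the GENCODE annotation, had 0 to 13 reads per library.

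**Figure D2:**
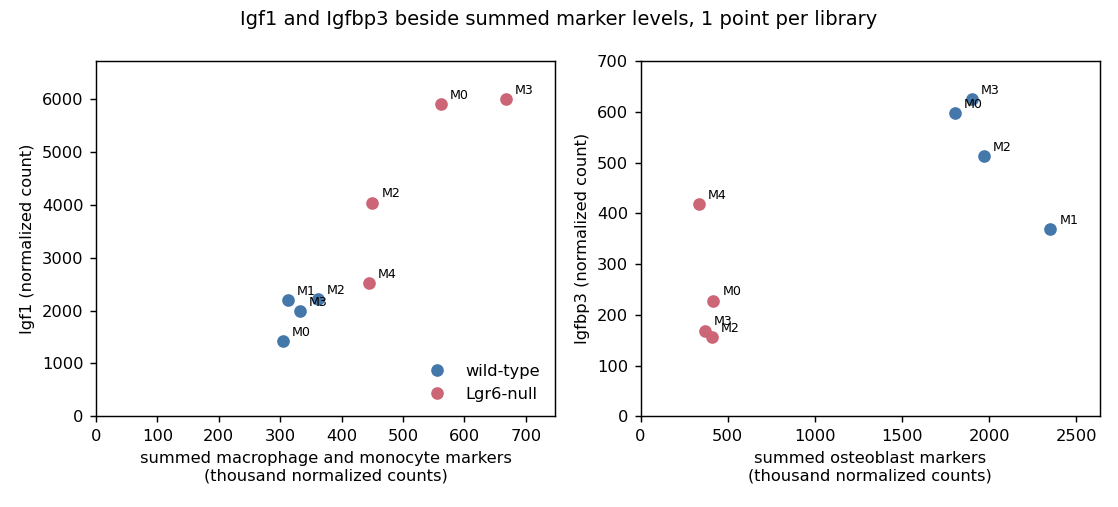
Igf1 against the sum of 16 macrophage and monocyte markers (left) and Igfbp3 against the sum of 12 osteoblast markers (right), 1 point per library, all axes linear from 0. Lgr6-null M4 has summed macrophage markers like M2 (444403 and 450219) but less Igf1 (2522 and 4043); the osteoblast sum separates the genotypes by a wide gap and Igfbp3 does not.

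Igf2 (ENSMUSG00000048583, chromosome 7), a fetal growth factor expressed from the paternal allele in most tissues, was barely detected. Wild-type libraries M0 to M3 had 12.1, 6.63, 4.36 and 15.2 normalized counts and Lgr6-null M0, M2, M3 and M4 had 20.9, 30.1, 11.9 and 11.5, from 37 and 83 reads in all. The ranges overlapped, and the log2 fold change of 0.92 (SE 0.44, interval -0.08 to 1.91) was not called (adjusted p = 0.164). Per length of annotated exon, Igf1 made up 98.55% to 99.66% of the sum of both ligands in every library. Another protein-coding gene of the annotation, Gm49394, shares 3596 of the 5723 exon bases of Igf2 on the same strand and is not analysed here. Whether the authors' annotation held it is not stated. If it did, reads on the shared bases may not have been counted for Igf2, and its level and its share of the ligands may be understated.

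Neither receptor was called. Igf1r (ENSMUSG00000005533, chromosome 7) was at 1593, 1833, 1619 and 1793 normalized counts in wild-type M0 to M3 and at 1390, 1585, 1066 and 1441 in Lgr6-null M0, M2, M3 and M4. The genotypes did not overlap, but Lgr6-null M2 lay just below wild-type M0. The log2 fold change of -0.33 (SE 0.11, interval -0.59 to -0.08) missed the threshold (adjusted p = 0.0590). It was called in 3 of 18 alternatives, with DESeq2 (adjusted p = 0.0429), with sample weights in limma (adjusted p = 0.0478) and without Lgr6-null library M2 (adjusted p = 0.0287). The other 15 did not call it, among them scaling to the same total (-0.24, adjusted p = 0.2).

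Igf2r (ENSMUSG00000023830, chromosome 17) was the steadiest member in wild-type, at 3365, 3265, 3438 and 3272, a highest to lowest ratio of 1.05. Lgr6-null M0, M2, M3 and M4 had 3431, 3024, 2946 and 2663, with M0 inside the wild-type range and the others below it. Its log2 fold change was -0.15 (SE 0.08, interval -0.32 to 0.02, adjusted p = 0.183), so a change as large as that of Igf1 lay outside the interval. Quantile normalization gave a call at -0.21 (adjusted p = 0.0487).

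Igfbp3 (ENSMUSG00000020427, chromosome 11), the main IGF carrier of serum and a target of p53 and TGF-β in several cell types, fell. It was at 597, 369, 513 and 625 normalized counts in wild-type M0 to M3 and at 228, 156, 169 and 418 in Lgr6-null M0, M2, M3 and M4. Lgr6-null M4, the shallowest library, lay above wild-type M1, so the ranges overlapped in that pair alone. The means were 526 ± 115 and 243 ± 121 (SD, n = 4), the log2 fold change -1.20 (SE 0.29, interval -1.86 to -0.54, adjusted p = 0.0146). Igfbp3 was called in all 18 alternatives (log2 fold change -1.66 to -1.03), and leaving out M4 gave -1.50. The osteoblast markers fell in the same libraries, by a ratio of 5.23 in their sum. Col1a1 and Col1a2 held 792253 and 508352 of the mean sum of 2006142 in wild-type and 129990 and 103779 of 383316 in Lgr6-null. The ratios of single markers ran from 2.29 (Runx2) to 23.5 (Phex), so the sum depends mostly on these 2 collagen genes. That sum was 1804152, 2351761, 1967503 and 1901153 in wild-type M0 to M3, where M1 had the lowest Igfbp3. It was 417617, 409004, 370224 and 336417 in Lgr6-null M0, M2, M3 and M4. The part of the osteoblast markers in the Igfbp3 difference was not tested.

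Igfbp5 (ENSMUSG00000026185, chromosome 1), a binding protein stored in bone matrix, was called higher by the narrowest margin. Wild-type M0 to M3 had 1648, 2171, 2624 and 2900 normalized counts, and Lgr6-null M0, M2, M3 and M4 had 4384, 6387, 2270 and 8274. Lgr6-null M3 was within the wild-type range and M4 was 3.64 times M3. The means were 2336 ± 548 and 5329 ± 2585, and the log2 fold change 1.07 (SE 0.35, interval 0.28 to 1.85, adjusted p = 0.0498). The call was lost in 11 of 18 alternatives, among them every one that left out a library except Lgr6-null M3, without which the log2 fold change was 1.43 (adjusted p = 0.00339), while the direction held in all 18 (0.78 to 1.43).

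Igfbp4 (ENSMUSG00000017493, chromosome 11), an inhibitor of IGF action on osteoblasts, had the highest level per length of the members and did not differ by the test. It was at 14193, 16892, 17199 and 20941 in wild-type and at 17871, 19352, 21586 and 19407 in Lgr6-null. All Lgr6-null values lay above 3 of the 4 wild-type values, and wild-type M3 lay among them. The log2 fold change was 0.19 (SE 0.12, adjusted p = 0.296), with an interval of -0.08 to 0.46.

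Igfbp7 (ENSMUSG00000036256, chromosome 5), a relative with low affinity for IGFs that is abundant around vessels and in matrix, was near the threshold. It was at 1084, 1544, 1396 and 1760 in wild-type and at 2790, 1821, 3725 and 1672 in Lgr6-null M0, M2, M3 and M4, so M4 alone lay below the highest wild-type library. The log2 fold change was 0.74 (SE 0.25, interval 0.18 to 1.29, adjusted p = 0.0534), and 8 of 18 alternatives called it, including edgeR's quasi-likelihood test (adjusted p = 0.0367) and scaling to the same total (adjusted p = 0.0190), as well as leaving out Lgr6-null M2 (adjusted p = 0.0386) or M4 (adjusted p = 0.0225). Igfbp7 overlaps 85 exon bases of Polr2b on the opposite strand; the strand setting of the counting is not given in the sources used here.

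Igfbp2 (ENSMUSG00000039323, chromosome 1), a binding protein of fetal tissues and serum, was the most uneven member in Lgr6-null cultures. Wild-type M0 to M3 had 90.9, 138, 220 and 187 normalized counts. Lgr6-null M0, M2, M3 and M4 had 580, 90.4, 645 and 263.5, so that M2 was as low as the lowest wild-type library and the other 3 were above all of them. The log2 fold change of 1.02 (SE 0.56, interval -0.23 to 2.28, adjusted p = 0.219) was not called, and without M2 it was 1.61 (adjusted p = 0.0136).

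Igfbp6 (ENSMUSG00000023046, chromosome 15), which prefers IGF2 over IGF1, was at 84.4, 92.8, 159 and 158 in wild-type and at 187, 56.9, 236 and 85.9 in Lgr6-null. Lgr6-null M0 and M3 lay above the wild-type range, M2 below it and M4 inside it, and the log2 fold change was 0.03 (SE 0.43, interval -0.93 to 0.99, adjusted p = 0.968). Its direction depended on which libraries were kept.

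**Figure D3:**
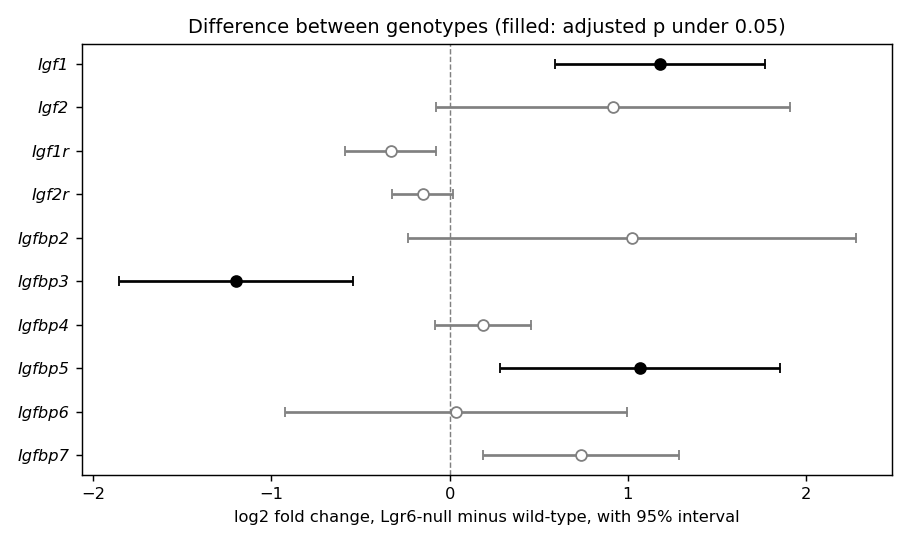
Log2 fold change (x axis, Lgr6-null minus wild-type) of each member with its 95% interval from limma over 8 libraries; filled points were called at an adjusted p under 0.05. Igf1 (1.18), Igfbp5 (1.07) and Igfbp3 (-1.20) are filled, and the intervals of Igf1r and Igfbp7 exclude 0 although neither was called after adjustment over all genes.

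Which library was high differed among the members. In wild-type, library M0 was the lowest for 7 members (Igf1, Igf1r, Igfbp2, Igfbp4, Igfbp5, Igfbp6 and Igfbp7). In Lgr6-null, M3 was the highest for 5 members (Igf1, Igfbp2, Igfbp4, Igfbp6 and Igfbp7) and the lowest for Igf1r and Igfbp5. Igf1, Igfbp2, Igfbp6 and Igfbp7 were higher in M3 and M0 than in M2 and M4, and Igfbp5 and Igf1r were higher in M2 and M4 than in M3 and M0. The macrophage marker sum was also higher in M3 and M0, whereas the mesenchymal stromal sum was highest in M4 (107500) and M0 (102716). What these library differences stem from was not tested.

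Levels of different genes were compared per kilobase of annotated exon. In wild-type, Igfbp4 was at 3919 ± 628 normalized counts per kilobase (SD, n = 4) and Igfbp7 at 1196 ± 235, each clear of the next in the order. Igfbp5 (389 ± 91.3) and Igf2r (358 ± 8.86) followed with overlapping ranges. Igf1 (197 ± 37.2), Igfbp3 (168 ± 36.8), Igfbp6 (111 ± 36.6), Igf1r (102 ± 7.19) and Igfbp2 (86.2 ± 30.7) came next, each overlapping its neighbour. Igf2, at 1.67 ± 0.87, was far below.

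In Lgr6-null the order was Igfbp4 (4428 ± 347 per kilobase), Igfbp7 (2070 ± 789), Igfbp5 (887 ± 430), Igf1 (467 ± 168) and Igf2r (324 ± 34.1). The ranges of Igfbp7 and Igfbp5 barely missed each other, since the lowest Igfbp7 was 1383 and the highest Igfbp5 1378, both in M4. Igf1 thus stood in place 4, ahead of Igf2r, where it was in place 5 in wild-type, though its range overlapped that of Igf2r. Igfbp3 moved from place 6 to place 9, at 77.5 ± 38.7 per kilobase, behind Igfbp2 (214 ± 142), Igfbp6 (127 ± 75.6) and Igf1r (81.6 ± 13.1); all neighbours from Igfbp5 down to Igfbp3 overlapped. Igf2 was last at 3.25 ± 1.54.

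The 6 binding proteins summed to 4701 to 7124 normalized counts per kilobase in wild-type and to 7102 to 8962 in Lgr6-null. Igfbp4 made up 65.9% to 68.4% of that sum in wild-type libraries and 53.0% to 61.7% in Lgr6-null libraries, ranges that did not overlap. Its own level was not lower, with means of 3919 per kilobase in wild-type and 4428 in Lgr6-null, so only its share of a larger sum was smaller. Igfbp3 made up 2.06% to 4.06% in wild-type and 0.60% to 1.78% in Lgr6-null. Igfbp7 and Igfbp5 took most of the rest: 19.1% to 22.3% and 5.84% to 7.39% in wild-type. In Lgr6-null these 2 shares were uneven, with Igfbp7 at 30.2%, 21.2%, 34.4% and 18.4% and Igfbp5 at 9.56%, 15.0%, 4.22% and 18.35% in M0, M2, M3 and M4. Each of these shares thus varied little among the wild-type libraries. In Lgr6-null, M0 and M3 had larger Igfbp7 shares than M2 and M4, and M2 and M4 had larger Igfbp5 shares than M0 and M3. The Igfbp7 share was above the Igfbp5 share in every library, by the least in Lgr6-null M4 (18.42% against 18.35%). These shares are descriptions and were given no test.

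**Figure D4:**
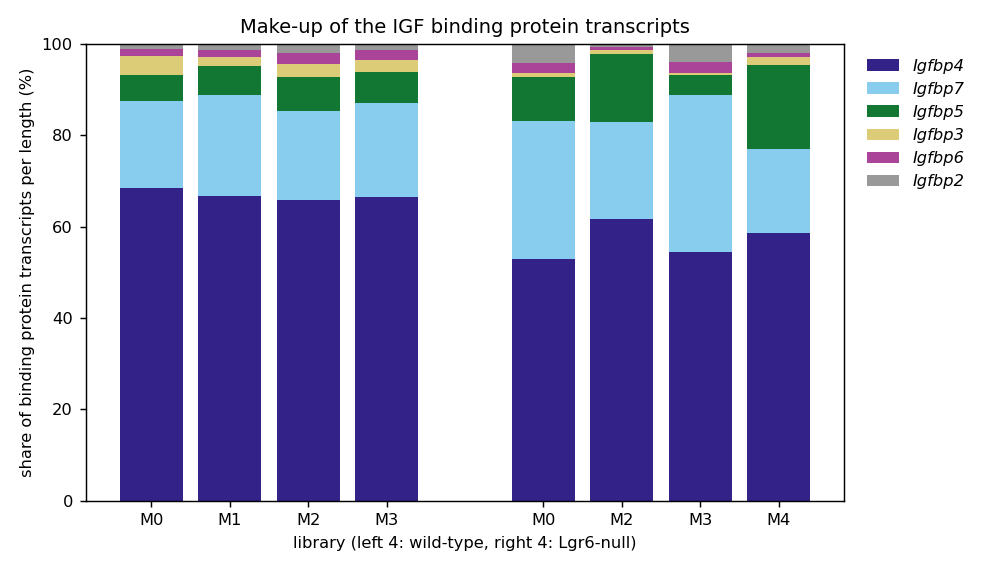
Share of each binding protein (percent of the summed normalized counts per kilobase of the 6 genes) in each library, wild-type on the left and Lgr6-null on the right. Igfbp4 is the largest part in all 8 libraries, and its share is smaller in Lgr6-null (53.0% to 61.7%) than in wild-type (65.9% to 68.4%). Its level per kilobase is not lower (means of 4428 in Lgr6-null and 3919 in wild-type).

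Genes that act around the members were taken from 7 lists, of which 54 genes were tested; 8 were called higher and 9 lower, with a median log2 fold change of -0.02. These counts are near the 13.0% and 12.7% of all tested genes called higher and lower, and are no result about the lists. Among 7 tested proteases of the binding proteins and stanniocalcins, which inhibit PAPP-A, 1 was called higher and 2 lower. Adam12, a metalloprotease that cleaves IGFBP3 and IGFBP5, fell from 1977 ± 320 to 440 ± 113 normalized counts (log2 fold change -2.18, SE 0.18, adjusted p = 4.36e-05). Stc2, a stanniocalcin, had 171, 293.5, 222 and 261 in wild-type and 41.75, 64.5, 46.8 and 55.4 in Lgr6-null (log2 fold change -2.15, SE 0.20, adjusted p = 7.67e-05). For both genes the genotypes did not overlap. Adam9 rose by 0.40 (SE 0.11, adjusted p = 0.0278), while Pappa, the protease of IGFBP4, was at 1947 ± 93.0 and 2580 ± 1120 without a call (log2 fold change 0.28, adjusted p = 0.546).

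Downstream of the receptor, 1 of 10 tested genes of the insulin receptor, substrate and adaptor list was called, the adaptor Gab1 (log2 fold change 0.45, SE 0.10, adjusted p = 0.00845). The substrate Irs1 averaged 3099 ± 243 and 2285 ± 1114 and was not called (-0.60, adjusted p = 0.229). In the PI3K, AKT, FOXO and TOR relay, 4 of 24 tested genes were called higher and 3 lower, also near the 13.0% and 12.7% over all tested genes. Inpp5d, a phosphatase of the PI3K product found mainly in blood cells, rose from 2863 ± 222 to 4705 ± 712 (0.71, SE 0.11, adjusted p = 0.00144), in the libraries where macrophage markers were higher. The other genes called higher were Pik3r1 (adjusted p = 0.0354), Pik3r3 (adjusted p = 0.046) and Rictor (adjusted p = 0.0421), all nearer the threshold and with overlapping genotypes. Lgr6-null M3 lay inside the wild-type range for Pik3r1 and Rictor and just below it for Pik3r3. Lower were Foxo1, a transcription factor that AKT holds out of the nucleus (-0.77, SE 0.12), Rps6kb1, the S6 kinase (-0.44, SE 0.07), and Mtor (-0.30, SE 0.06). The kinase gene Akt1 was at 0.07 (adjusted p = 0.475).

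In the growth hormone axis, which drives Igf1 transcription in liver and bone, 1 of 6 tested genes was called higher and 1 lower. The receptor Ghr rose from 673 ± 54.8 to 927 ± 58.8 (0.46, SE 0.08, adjusted p = 0.00226), and its kinase Jak2 fell from 2148 ± 35.2 to 1525 ± 231 (-0.51, SE 0.10, adjusted p = 0.00539). Igf2bp2, an mRNA-binding protein named for Igf2, was at -0.40 without a call (adjusted p = 0.106). Igf2bp3, the other gene tested in its list, was at -0.09 without a call (adjusted p = 0.888), from 3 to 26 reads per library. Of 3 tested genes in the list of other insulin family and binding protein-like genes, 0 were called higher and 2 lower. Kazald1, a secreted protein with an IGF-binding protein-like domain, fell by 3.08 (SE 0.42, adjusted p = 0.000778). Esm1, a secreted proteoglycan with such a domain, was counted with 960 reads in wild-type in all and with 30 in Lgr6-null, 0 of them in M4 (fitted log2 change -5.37, SE 0.74, adjusted p = 0.000829).

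The imprinted RNAs beside Igf2 and Igf2r moved while their neighbours were not called. H19, a noncoding RNA expressed from the maternal allele next to Igf2, rose from 208 ± 144 to 1098 ± 441 (2.55, SE 0.43, adjusted p = 0.00229), with no overlap. Airn, a noncoding RNA antisense to Igf2r, fell from 99.4 ± 12.4 to 52.7 ± 11.3 (-0.92, SE 0.19, adjusted p = 0.00591). That the change of H19 differs from that of Igf2, or Airn from Igf2r, was not tested.

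**Figure D5:**
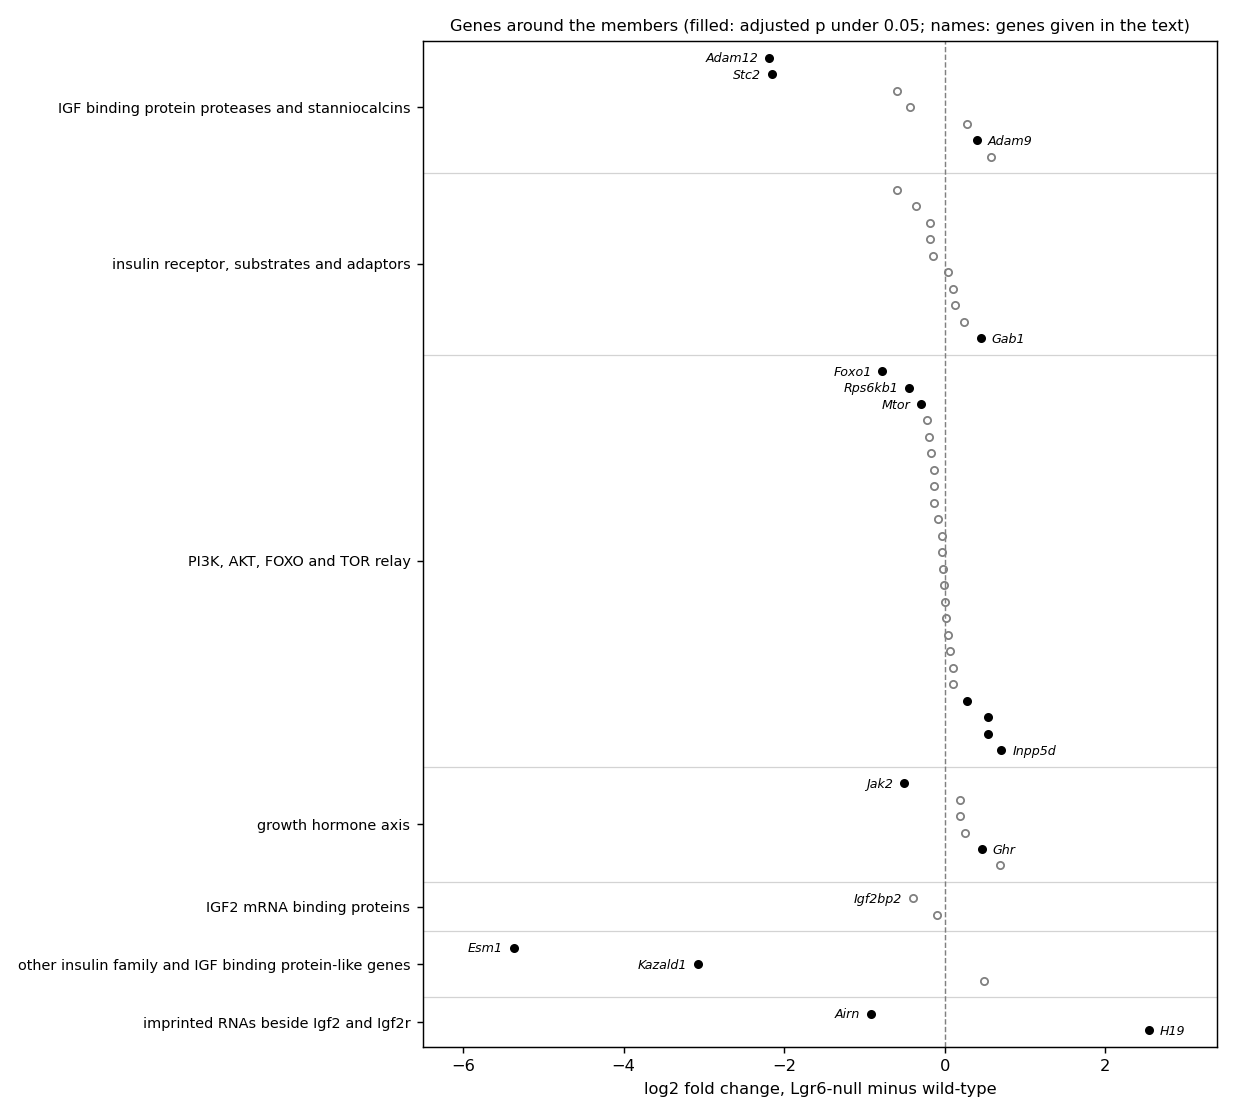
Log2 fold change (x axis, Lgr6-null minus wild-type) of the 54 tested genes in 7 lists around the members (rows), 1 point per gene; filled points were called at an adjusted p under 0.05 and names mark genes singled out by the naming rule. Most points lie near 0, with Esm1 (-5.37), Kazald1 (-3.08), Adam12 (-2.18), Stc2 (-2.15) and H19 (2.55) farthest out.

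The genes with the profile most like a member's were found by the root mean square difference of log2 values over the 8 libraries, each gene centred on its own mean. Only tested genes with a symbol that is not a predicted gene's (Gm plus digits, or Rik) were compared. For Igf1 they were Rasgrp2 (0.16), Wfdc17 (0.17) and Gatm (0.19), where the median over all genes so compared was 0.74. For Igfbp3 they were Ntn3 (0.25), Hpdl (0.30) and Car11 (0.31), and for Igf2 they were Trim30c (0.25), Edaradd (0.39) and Col19a1 (0.41), with medians of 0.78 and 0.77. The measure takes in the difference between genotypes as well as the spread within them, and is a description.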

How the data were processed

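Per the labels' protocols, Trizol-isolated RNA went into a kit for stranded mRNA libraries. Per the submitters' processing notes, HISAT2 2.1.1, HTSeq 0.13.5, DESeq2 and build GRCm39 were used; gene annotation, strand setting and treatment of multi-mapping reads are not stated there. The deposited values are a signal, normalized counts made by the authors as read counts divided by 1 size factor per library. In every column 100% of values were whole multiples of 1 step within 0.01 read, so whole reads were recovered; depth limits the precision of the lowest member, Igf2, while the widest interval was that of Igfbp2. Genes in the table had at least 11 reads over the 8 libraries.

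Columns were tied to genotypes by name only, since their numbers match no title. No 2 libraries of a genotype were copies (chi-square of reads over its degrees of freedom, 8.59 or more). Symbols, exon lengths and overlaps came from GENCODE M21 (build GRCm38), which matched 19361 identifiers; 99 did not match. Genes reaching a normalized count of 10 in 4 or more libraries were tested together with limma 3.58.1 (R 4.3.3, trend, log2 with a pseudocount of 1), Benjamini-Hochberg adjusted, called under 0.05. Single values used an exact permutation test (scipy 1.17.1). Alternatives were a pseudocount of 0.5 or 5, a filter on a mean of 50, no filtering, same-total and quantile scaling, sample weights, edgeR 4.0.16, DESeq2 1.42.0, a replicate block, each library left out, and another exon length. The tests were tried on simulated counts. The members and lists were chosen with earlier results of these data known. Named genes were the members, Lgr6, up to 4 called genes per list by smallest p (or the one with the smallest p), the 3 nearest profiles of Igf1, Igf2 and the largest called rise and fall, and the 2 most abundant markers of each marker list; Pappa, Irs1, Akt1, Igf2bp3, Igf1os, Pik3r1, Pik3r3, Rictor, Cd3e and Cd3d were chosen after values were seen. Promoters of all 10 members were matched by symbol.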

Additional observations from a re-analysis of the deposited data

How the results depend on the processing

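Igf1 (higher) and Igfbp3 (lower) kept their calls in all 18 alternatives, and Igfbp4 and Igfbp6 were called in none of 18 and Igf2 in none of the 17 that tested it, since a mean of at least 50 drops it. With a pseudocount of 0.5 or a mean of at least 50, 1 member was called higher, since Igfbp5 was at adjusted p = 0.0503 and 0.0502. Quantile normalization also took the Igfbp5 call (0.0605). Quantile normalization, DESeq2 and sample weights each called 2 members lower, and leaving out 1 library gave 1 to 3 members higher and 1 to 2 lower. Igfbp5 lost its call without wild-type library M0 (adjusted p = 0.117), M1 (0.108), M2 (0.0776) or M3 (0.0656) and without Lgr6-null library M0 (0.0891), M2 (0.110) or M4 (0.1). Igfbp6 turned negative with sample weights (-0.089) and without wild-type M0 or M1 or Lgr6-null M0 or M3, over a range of -0.28 to 0.39. With the longest coding transcript as length, Igfbp4 made up 68.9% of binding protein transcripts in wild-type, against 66.9%. Scaling to the same total called 2886 genes higher, with a median of all genes of 0.09, and edgeR on the recovered reads called 1997 higher and 1752 lower. The replicate block used the column numbers, of which both genotypes share M0, M2 and M3. Wild-type M1 and Lgr6-null M4 were alone in their blocks and added nothing to that comparison of genotypes. Deviations of same-numbered libraries correlated at -0.01, -0.12 and 0.03, and 1 of 6 libraries correlated best with its own number. These values gave no sign of pairing, but they cannot show that no litter, batch or day was shared. With that block 937 genes were called higher and 1021 lower, Igfbp5 was at adjusted p = 0.194 and Igfbp7 at 0.0294. The counting depth limits Igf2 most, with 5 to 36 reads per library.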
